A study of Mus musculus with 5 samples.

Results

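The genes of 10 ETS transcription factors were followed in 5 lines derived from NIH/3T3, a mouse fibroblast line of embryonic origin that grows without limit. The 10 genes were chosen by name: the PEA3 group (Etv1, Etv4 and Etv5), the Ets group (Ets1 and Ets2), the ternary complex factors (Elk1, Elk3 and Elk4), and Gabpa and Etv6. All 10 were found among the 14454 gene symbols of the series. In 4 of the lines, numbered 3, 6, 15 and 18, an integrated gene encodes human histone H2A with the T120D substitution joined to EGFP, a green fluorescent protein. In the fifth line, wt, the same fusion carries wild-type human H2A. The substitution replaces a threonine of the C-terminal tail with an aspartate, a residue often used to mimic phosphorylation. The labels give for all 5 lines DMEM with 10% fetal calf serum and 10 µg/ml gentamicin, and they name no change to the cells' own H2A genes and no promoter for the transgene. They do not say whether each line is a clone or a separate culture. The p-values below therefore set a difference against the spread between the T120D samples, part of which may be technical.

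ETS factors share a winged helix-turn-helix domain that binds DNA around a GGAA core. Many of them are endpoints of RAS and ERK signalling. In fibroblasts the ternary complex factors sit with the serum response factor Srf on promoters of immediate early genes and are activated there by ERK phosphorylation. Ets1 and Ets2 are also activated by ERK. The PEA3 genes are themselves switched on by ERK signalling, which removes the repressor Cic (Capicua) from them, and their proteins are degraded through the ubiquitin ligase adaptor Cop1 (symbol Rfwd2 in these tables).

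Expression was given as RPKM, the authors' read density, divided by transcript length and by the number of reads mapped in a line, so levels of different genes are compared below per length. Estimated depth was low, between 2520000 and 2720000 reads per line. A difference below is the average over the 4 T120D lines less the wt value on the log2(RPKM + 1) scale, which understates changes of weakly expressed genes. It was tested with limma over the 10052 genes averaging 1 RPKM or more, and a gene was called at a Benjamini-Hochberg adjusted p under 0.05. Because there was 1 wt line, each call sets its distance against the spread of the T120D lines, and no spread between wt lines enters. Of all tested genes 13.1% were called, 7.65% higher and 5.45% lower in T120D. Fibroblast identity was checked with 12 markers. All had values above 1 RPKM on average, and their summed level was 2460 to 2815 RPKM in the T120D lines and 3229 RPKM in the wt line. The largest parts of that sum were S100a4 (927 to 1150 RPKM in T120D, 1363 RPKM in wt) and Vim (801 to 848 RPKM in T120D, 701 RPKM in wt). Of the 12 markers, 7 fell and 1 rose in T120D. Under 11 alternative settings the call of S100a4 ended in 6, that of Col1a2 in 4 and that of Col5a1 in 1, and the other 5 calls held. These 5 were Pdgfra (log2 difference -1.71), Col3a1 (-1.52), Fn1 (-1.43) and Pdgfrb (-1.12), all lower, and Thy1 (1.39), higher. The part of these markers in the results below was not tested. Epithelial markers reached at most 0.476 RPKM and endothelial markers at most 0.471 RPKM in any line, with the endothelial genes Pecam1 and Tek listed at 0 in all 5 lines. Among blood cell markers Cd14 reached 5.32 RPKM and the others at most 1.46 RPKM. In such bulk RNA, fewer cells expressing a gene and less RNA of it per cell cannot be told apart.

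Among the 9 ETS genes that could be tested, Etv4, Etv5 and Ets1 rose and Ets2 fell in T120D, while no ternary complex factor was called. The Etv5 window that holds Cic octamers, the sites at which that repressor binds, is shown first. RefSeq windows of build GRCm38.p6 were found for 8 of the 10 genes, 12 windows in all, and the 250 bases before each annotated start were searched on both strands. Etv5 has 2 annotated starts on the minus strand. For the second, inner start, the window before it lies in an intron of the GENCODE Etv5 gene. The bases that follow this start were not found near the opening of any GENCODE Etv5 transcript, so the inner start rests on RefSeq alone. The window before it, at chr16:22438369-22438618, is given 5′ to 3′ on the gene's strand, with matches to the octamers in capitals. The octamers searched were TCAATGAA, TCAATGAG, TCAATGGA, TCAATGGG, TGAATGAA, TGAATGAG, TGAATGGA and TGAATGGG, and the full set was searched after the Etv5 windows had been seen.
Etv5 inner start: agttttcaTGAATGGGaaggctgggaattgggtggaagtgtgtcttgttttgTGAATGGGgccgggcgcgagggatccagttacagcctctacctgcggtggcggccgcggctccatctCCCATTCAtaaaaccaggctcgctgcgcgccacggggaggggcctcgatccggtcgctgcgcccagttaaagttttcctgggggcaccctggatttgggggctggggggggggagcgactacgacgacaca
This window held 3 matches to TGAATGGG, 2 on the gene's strand and 1 on the other. Over the 32851 windows of all genes, 5.86% held at least 1 of the 8 octamers and 0.0578% (19 windows) held 3 or more. The first match overlaps a GGAA core. The window before the outer Etv5 start, at chr16:22439571-22439820, held no octamer and no GGAA, a core found in 93.4% of all windows. For Ets2, which moved the other way, the window on the plus strand at chr16:95702157-95702406 held 1 core and no octamer. GENCODE exons of the same gene cover 149 of the 250 bases of that outer Etv5 window and all 250 of the Ets2 window, so these are not purely upstream sequence. Among the other members, the Etv6 window held 1 octamer, and the 1 match to the extended ETS site CCGGAAGT, present in 2.88% of all windows, lay before Elk4. No member window held the AP-1 site TGANTCA or the CArG box bound by Srf, present in 6.75% and 1.47% of all windows. These matches describe letters in a window and do not show that a factor bound there.

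Etv4, the founding PEA3 gene, differed most. Its level was 7.79, 6.64, 8.68 and 8.45 RPKM in T120D lines 3, 6, 15 and 18, against 0.628 RPKM in the wt line. Every T120D line was thus more than 10-fold above wt, the lowest at 10.6-fold in line 6 and the highest at 13.8-fold in line 15. On the log2 scale the difference was 2.44 (SE 0.20, 95% confidence interval 1.99 to 2.89; limma adjusted p = 0.000187). The wt level corresponds to about 4 reads, for which counting alone allows 0.172 to 1.61 RPKM (exact 95% Poisson interval, counting error only), still below the lowest T120D line. Because the wt value is so low, the size of the difference depends on the added constant: it was 3.45 with a pseudocount of 0.1 RPKM.

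Etv5, also called ERM, rose less. It stood at 4.14, 4.83, 6.09 and 4.57 RPKM in T120D lines 3, 6, 15 and 18 and at 2.11 RPKM in wt. All 4 T120D lines lay above the wt line, by 1.96-fold to 2.89-fold, with a log2 difference of 0.91 (SE 0.22, 95% confidence interval 0.41 to 1.42; limma adjusted p = 0.0292). That call ended when genes of low expression were kept in the test (limma adjusted p = 0.0866) and when T120D line 18 was left out (limma adjusted p = 0.0502).

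Etv1, the third PEA3 gene, was barely expressed. Its level was 0.833, 0.681, 1.09 and 1.5 RPKM in T120D lines 3, 6, 15 and 18, against 0.773 RPKM in wt, so the wt line lay inside the T120D range. With a mean of 0.975 RPKM over the 5 lines it fell just under the filter and was not tested. In the fit without the filter its log2 difference was 0.18 (95% confidence interval -0.49 to 0.84; limma adjusted p = 0.74). The order within the group also differed between the lines: Etv4 was 1.37 to 1.88 times the Etv5 level in the T120D lines and 0.297 times that level in wt.

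**Figure D1:**
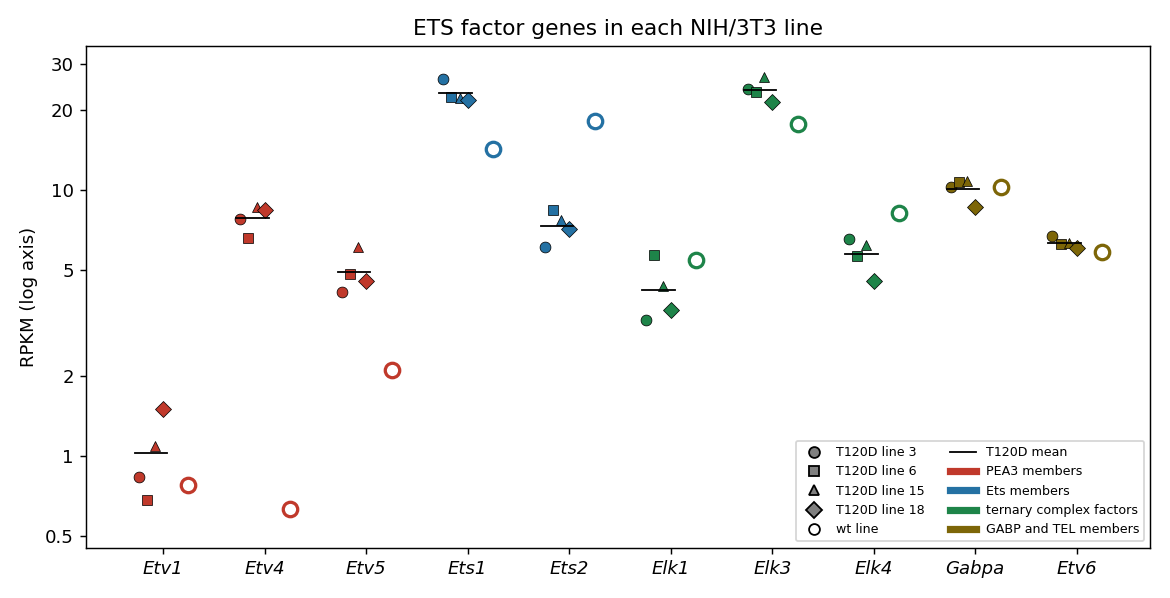
RPKM of the 10 ETS genes on a log axis, with 1 filled symbol per T120D line (n = 4; the short bar is their mean) and an open circle for the wt line (n = 1). Etv4 stands at 6.64 RPKM or more in each T120D line and at 0.628 RPKM in wt, and Ets2 is the gene with wt farthest above the T120D lines.

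The closest relatives in the Ets group moved in opposite directions. Ets1 was at 26.3, 22.4, 22.3 and 21.9 RPKM in T120D lines 3, 6, 15 and 18, and at 14.3 RPKM in wt. Ets2 was at 6.12, 8.41, 7.71 and 7.15 RPKM in the same T120D lines, and at 18.3 RPKM in wt. For neither gene did the T120D lines overlap the wt value. Over all tested genes, 31.1% had all 4 T120D lines above wt and 32.3% had all 4 below it. The log2 difference of Ets1 was 0.65 (SE 0.14, 95% confidence interval 0.33 to 0.98; limma adjusted p = 0.0183), but Ets1 lost its call when genes of low expression were kept in (limma adjusted p = 0.0567) and in limma without an intensity trend (limma adjusted p = 0.058). That of Ets2 was -1.21 (SE 0.19, 95% confidence interval -1.63 to -0.79; limma adjusted p = 0.00405). The ratio of Ets1 to Ets2 RPKM was 4.29, 2.67, 2.89 and 3.06 in T120D lines 3, 6, 15 and 18 and 0.785 in wt. T120D line 3 had both the highest Ets1 and the lowest Ets2 value. The Ets1 model overlaps the antisense gene Gm27240 on the opposite strand, and whether reads were counted by strand is not given. The ratio is given without a test, because with 1 line against 4 the smallest one-sided p of an exact permutation test is 0.2.

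The ternary complex factors Elk1, Elk3 and Elk4 were not called by limma (Elk3 alone had an unadjusted p under 0.05, as 28.5% of all tested genes did), and their values did not all lie on the same side of wt. Elk3 (Net), which can repress as well as activate serum response genes, was the most abundant of the 3, at 24.0, 23.5, 26.6 and 21.4 RPKM in T120D lines 3, 6, 15 and 18, against 17.8 RPKM in wt. All 4 T120D lines lay above wt, and the log2 difference was 0.40 (95% confidence interval 0.08 to 0.73; limma adjusted p = 0.0979). Elk4 (Sap-1) was at 6.57, 5.63, 6.24 and 4.55 RPKM in the T120D lines in the same order, and at 8.19 RPKM in wt. Here all 4 T120D lines lay below wt (log2 difference -0.46, 95% confidence interval -0.93 to 0.02; limma adjusted p = 0.19). Elk1 varied most among the tested members between the T120D lines: it was at 3.23, 5.72, 4.34 and 3.53 RPKM in lines 3, 6, 15 and 18, against 5.48 RPKM in wt. The wt line lay inside that range (log2 difference -0.34, 95% confidence interval -0.94 to 0.26; limma adjusted p = 0.443). Elk1 lies on the X chromosome, and its model overlaps Uxt on the same strand in the GRCm38 annotation, so its reads can be uncertain. Elk3 and Elk4 overlap the protein-coding genes Cdk17 and Mfsd4a, each on the opposite strand. Whether reads were counted by strand is not given. Intervals of this width leave room for differences of the size seen for Ets1 in Elk3 and, downward, in Elk1 and Elk4.

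Gabpa and Etv6 lay closest to wt. Gabpa, the DNA-binding subunit of the GA-binding protein that serves many mitochondrial and housekeeping promoters, was at 10.3, 10.7, 10.8 and 8.68 RPKM in T120D lines 3, 6, 15 and 18 and at 10.3 RPKM in wt. The wt line lay within the T120D range, with a log2 difference of -0.02 (95% confidence interval -0.41 to 0.36; limma adjusted p = 0.941). Its gene model overlaps Atp5j on the opposite strand, and whether reads were counted by strand is not given in the sources used here. Etv6 (TEL), a transcriptional repressor, was at 6.72, 6.28, 6.32 and 6.04 RPKM in the T120D lines in that order, and at 5.84 RPKM in wt. It had the smallest spread of the members between T120D lines (SD 0.0552 on the log2 scale) and a log2 difference of 0.10 (95% confidence interval -0.28 to 0.48; limma adjusted p = 0.737). The Etv6 model also overlaps antisense genes on the opposite strand, among them Gm17088.

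**Figure D2:**
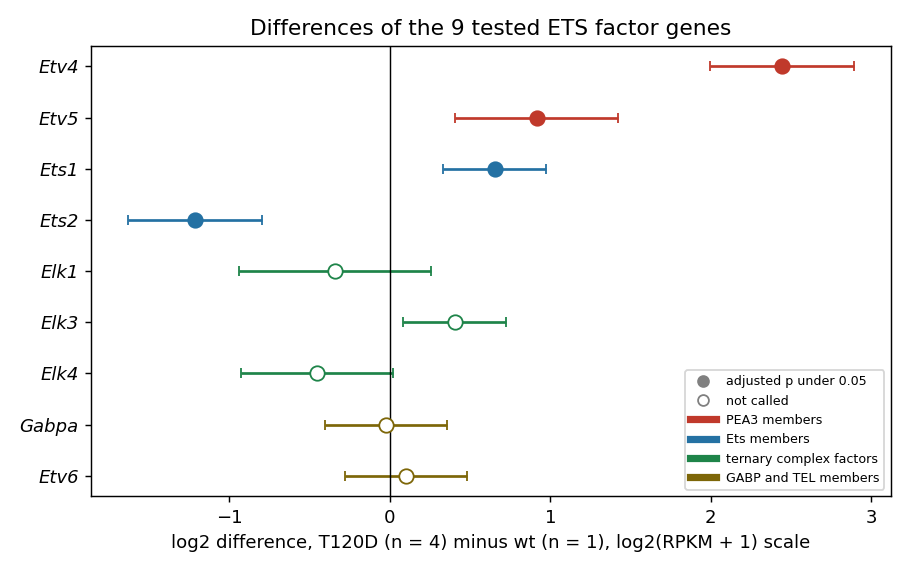
Log2 difference of each tested member, T120D average (n = 4) minus wt on the log2(RPKM + 1) scale, with the 95% confidence interval from limma; filled points were called at an adjusted p under 0.05. Etv4 (2.44), Etv5 (0.91) and Ets1 (0.65) lie above 0 and Ets2 (-1.21) lies below 0.

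By subfamily, both tested PEA3 genes rose, the Ets group had 1 gene higher and 1 lower, and 0 of the 3 ternary complex factors and 0 of the pair Gabpa and Etv6 were called by limma, with 1 (Elk3) and 0 at an unadjusted p under 0.05, against 28.5% of all tested genes. Over the 9 tested members 3 were higher and 1 lower, where 7.65% and 5.45% of all tested genes were. The median log2 difference of these 9 was 0.10, against -0.02 over all tested genes. All 4 T120D lines lay above wt for 5 tested members and below it for 2, positions that 31.1% and 32.3% of all tested genes also had. As the mean log2 difference to wt over all members of a subfamily, untested Etv1 included, the PEA3 genes were at 1.07, 1.02, 1.33 and 1.29 in T120D lines 3, 6, 15 and 18. The Ets group was at -0.30, -0.21, -0.27 and -0.33 and the ternary complex factors at -0.16, -0.01, -0.02 and -0.33 in the same lines. In each T120D line the PEA3 mean was therefore the highest, which rests on Etv4 and Etv5. Since these members were chosen with earlier results known, the contrast between subfamilies is a description.

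The levels placed the members in a different order in wt. Summed over the 10 genes, the level was 96.0, 94.8, 100.2 and 87.8 RPKM in T120D lines 3, 6, 15 and 18 and 83.7 RPKM in wt. Ets1 and Elk3 held the top 2 ranks in every T120D line. Ets1 made up 22.2% to 27.4% of the sum in the T120D lines and 17.1% in wt, and Elk3 24.4% to 26.6% in the T120D lines and 21.2% in wt. In wt the highest gene was Ets2, with 21.8% of the sum, against 6.37% to 8.87% in the T120D lines. Etv4 ranked 4 or 5 in the T120D lines, at 7.0% to 9.63% of the sum, and last in wt, at 0.751%. The Ets1 and Elk3 levels overlapped in the T120D lines, and Elk4, Etv6 and Ets2 lay close together there, at 4.55 to 8.41 RPKM.

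**Figure D3:**
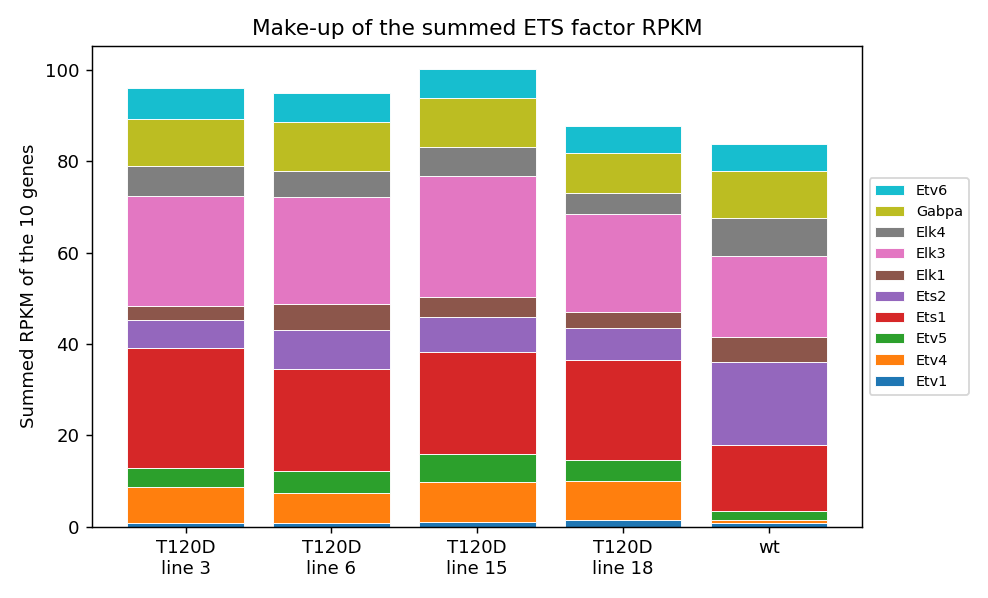
Stacked bars of the RPKM of the 10 genes, 1 bar per line (T120D lines 3, 6, 15 and 18, then wt). The Etv4 segment is a visible band in each T120D line and under 1% of the bar in wt, where the Ets2 segment is the largest at 21.8%.

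Among the tested genes of the rest of the ETS family limma called 0, and 1 of 5, Erf, had an unadjusted p under 0.05, against 28.5% of all tested genes. Of 17 further family genes, 11 had values and 5 passed the filter. These were Erf, a repressor controlled by ERK, Elf1, Elf2 and Elf4 of the ELF group, and Etv3, a repressor related to Erf. Erf was at 13.1 to 15.9 RPKM in the T120D lines and 11.4 RPKM in wt (log2 difference 0.36, limma adjusted p = 0.165). Elf1 was at 4.99 to 6.10 RPKM in T120D and 6.87 in wt, and Elf2 at 10.6 to 12.8 RPKM in T120D and 13.7 in wt. Both had all 4 T120D lines below wt, as did 32.3% of all tested genes. Elf4 and Etv3, at 6.04 to 8.40 and 3.62 to 4.81 RPKM in T120D, had wt values of 6.46 and 3.85 RPKM inside those ranges. Fli1, best known in endothelial and blood cells, varied from 0.123 to 1.10 RPKM between T120D lines and was at 0.356 RPKM in wt. Ehf, an epithelial ETS gene, was at 1.17 RPKM in wt and listed at 0 in all 4 T120D lines, and it fell under the filter. Without the filter it was called lower (limma adjusted p = 0.00708). As its T120D values had no spread, that p rests on the variance limma takes from other genes and on 1 low wt value. Etv2, Elf3, Spdef and Spib did not exceed 0.362 RPKM in any line.

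Partners and upstream regulators of the ETS factors were not called either. Among 11 partners and cofactors 0 were higher and 0 lower by limma, with 3 (Srf, Sp1 and Gabpb2), or 27.3%, at an unadjusted p under 0.05, a share near the 28.5% of all tested genes. Srf was at 13.0, 12.2, 15.4 and 10.4 RPKM in T120D lines 3, 6, 15 and 18, against 8.78 RPKM in wt (log2 difference 0.48, limma adjusted p = 0.149). Gabpb1, which encodes the partner subunit of Gabpa, was at 7.41 to 9.68 RPKM in T120D and 8.66 RPKM in wt. Among 11 regulators of the PEA3 factors 0 were higher and 0 lower by limma, with 1 (9.09%), Atxn1, at an unadjusted p under 0.05, against the same 28.5%. The repressor Cic was at 19.5, 20.2, 20.2 and 20.5 RPKM in T120D lines 3, 6, 15 and 18, and at 23.4 RPKM in wt (log2 difference -0.21, 95% confidence interval -0.48 to 0.07; limma adjusted p = 0.303). Its cofactor gene Atxn1 was at 1.29 to 1.75 RPKM in T120D and 3.00 RPKM in wt, with a log2 difference of -0.69 (limma adjusted p = 0.1), and it was called in limma without a trend (limma adjusted p = 0.0493). Rfwd2, encoding Cop1, was at 1.49 to 2.25 RPKM in T120D and 2.90 RPKM in wt. Mapk3, an ERK kinase gene, was at 16.3 to 21.4 RPKM in T120D and 22.1 RPKM in wt. This is a transcript level and says nothing of ERK activity.

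Genes reported, largely in human cells, to be repressed by Cic along with the PEA3 genes were higher in part. Of 12 tested members of this list, 5 rose and 0 fell, where 7.65% and 5.45% of all tested genes did. Their median log2 difference was 0.84, against -0.02 over all tested genes. The list was chosen with earlier results of these data known. Dusp4, a MAP kinase phosphatase gene, was at 10.4, 10.2, 9.44 and 8.91 RPKM in T120D lines 3, 6, 15 and 18, against 1.51 RPKM in wt (log2 difference 2.09, limma adjusted p = 0.000187). Dusp6, the ERK-specific phosphatase gene, was at 13.2 to 15.8 RPKM in T120D and 6.56 RPKM in wt (log2 difference 1.04). Fosl1, the AP-1 gene encoding Fra-1, was at 32.8 to 57.5 RPKM in T120D and 16.5 RPKM in wt, the cyclin gene Ccnd1 at 111.2 to 140.4 RPKM in T120D and 46.5 RPKM in wt, and Ccne1 at 7.55 to 12.7 RPKM in T120D and 3.94 RPKM in wt. The log2 differences of these 3 were 1.34, 1.36 and 1.23. The Sprouty and Spred genes of the list, feedback inhibitors of RAS signalling, were not called: Spry2, for example, was at 8.32 to 12.0 RPKM in T120D and 6.15 RPKM in wt (log2 difference 0.63, limma adjusted p = 0.0727). Spry2 was called higher once line 6 was left out (limma adjusted p = 0.0343). Dusp5 was not called in the main fit (log2 difference 1.09, limma adjusted p = 0.0639). With genes of low expression kept in the test, 3 genes of the list were called, since the calls of Fosl1 (limma adjusted p = 0.0834) and Ccne1 (0.0892) ended. Over the 11 alternatives the number called higher ranged from 3 to 6.

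Targets of Srf and the ternary complex factors gave a mixed picture. Of 14 listed genes 10 were tested, of which 3 rose and 0 fell, with a median of 0.39. Over all tested genes 7.65% rose and 5.45% fell, with a median of -0.02. An unadjusted limma p under 0.05 was reached by 6 of the 10 (60%), against 28.5% of all tested genes. The uncalled genes among these 6 were Btg2, Srf and Egr1. Cyr61, a matricellular gene, was at 133.6 to 187 RPKM in T120D and 28.6 RPKM in wt (log2 difference 2.38). Nr4a1, an orphan nuclear receptor gene, was at 8.95 to 10.2 RPKM in T120D and 1.63 RPKM in wt (log2 difference 1.98). Ier3 was at 19.5 to 26.4 RPKM in T120D and 8.07 RPKM in wt (log2 difference 1.41). The classic target Egr1, named here because its difference had the other sign, was at 13.9, 20.2, 9.91 and 11.5 RPKM in T120D lines 3, 6, 15 and 18 and at 25.3 RPKM in wt (log2 difference -0.87, limma adjusted p = 0.0901). It was called lower when line 6 was left out (limma adjusted p = 0.00961). Btg2, which differed upward, was at 7.80 to 11.4 RPKM in T120D and 5.71 RPKM in wt (log2 difference 0.69, limma adjusted p = 0.0592). Btg2 was called higher at a mean of at least 5 RPKM (limma adjusted p = 0.0458) and when line 15 was left out (limma adjusted p = 0.0296). Fos did not exceed 0.706 RPKM in any line, and Mcl1 and Ier2 were within 0.07 of wt on the log2 scale.

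The list of protease and other targets ascribed to PEA3 and Ets factors also split. Of its 9 tested genes 3 rose and 1 fell, where 7.65% and 5.45% of all tested genes did. The median was 0.22, against -0.02 over all tested genes. Plaur, the urokinase receptor gene, was at 28.3 to 39.7 RPKM in T120D and 6.83 RPKM in wt (log2 difference 2.08), and Plau, encoding urokinase itself, at 4.89 to 6.93 RPKM in T120D and 2.03 RPKM in wt (1.18). Ptgs2, the inducible cyclooxygenase gene, rose by 3.19 and Spp1, the osteopontin gene, fell by 2.99 on the log2 scale. The matrix metalloprotease genes of the list did not rise. Mmp14 was at 47.4 to 59.0 RPKM in T120D and 68.2 RPKM in wt, with a log2 difference of -0.40 (limma adjusted p = 0.092), and Mmp2 at 72.8 to 92.9 RPKM in T120D and 99.4 RPKM in wt (-0.27, limma adjusted p = 0.205). Mmp9, a gelatinase gene often tied to ETS activity, was at 0.126, 0.353, 0.239 and 0.242 RPKM in T120D lines 3, 6, 15 and 18 and at 3.74 RPKM in wt; it fell under the filter, and without the filter it was called lower (limma adjusted p = 0.0087). It was named after its values were seen. Of 14 GABP targets, with a median of 0.18, 1 rose (Tfb2m, a mitochondrial transcription factor gene, at 4.34 to 5.73 RPKM in T120D and 2.25 RPKM in wt) and 1 fell (Rpl32, a ribosomal protein gene, at 365.2 to 424.2 RPKM in T120D and 501.3 RPKM in wt; log2 difference -0.34, limma adjusted p = 0.0479). These GABP counts, 1 higher and 1 lower of 14, lie near the 7.65% and 5.45% of all tested genes. The Rpl32 call ended under 6 of 11 alternative settings and the Tfb2m call without the filter. Rpl32 also has pseudogenes that can share its reads.

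**Figure D4:**
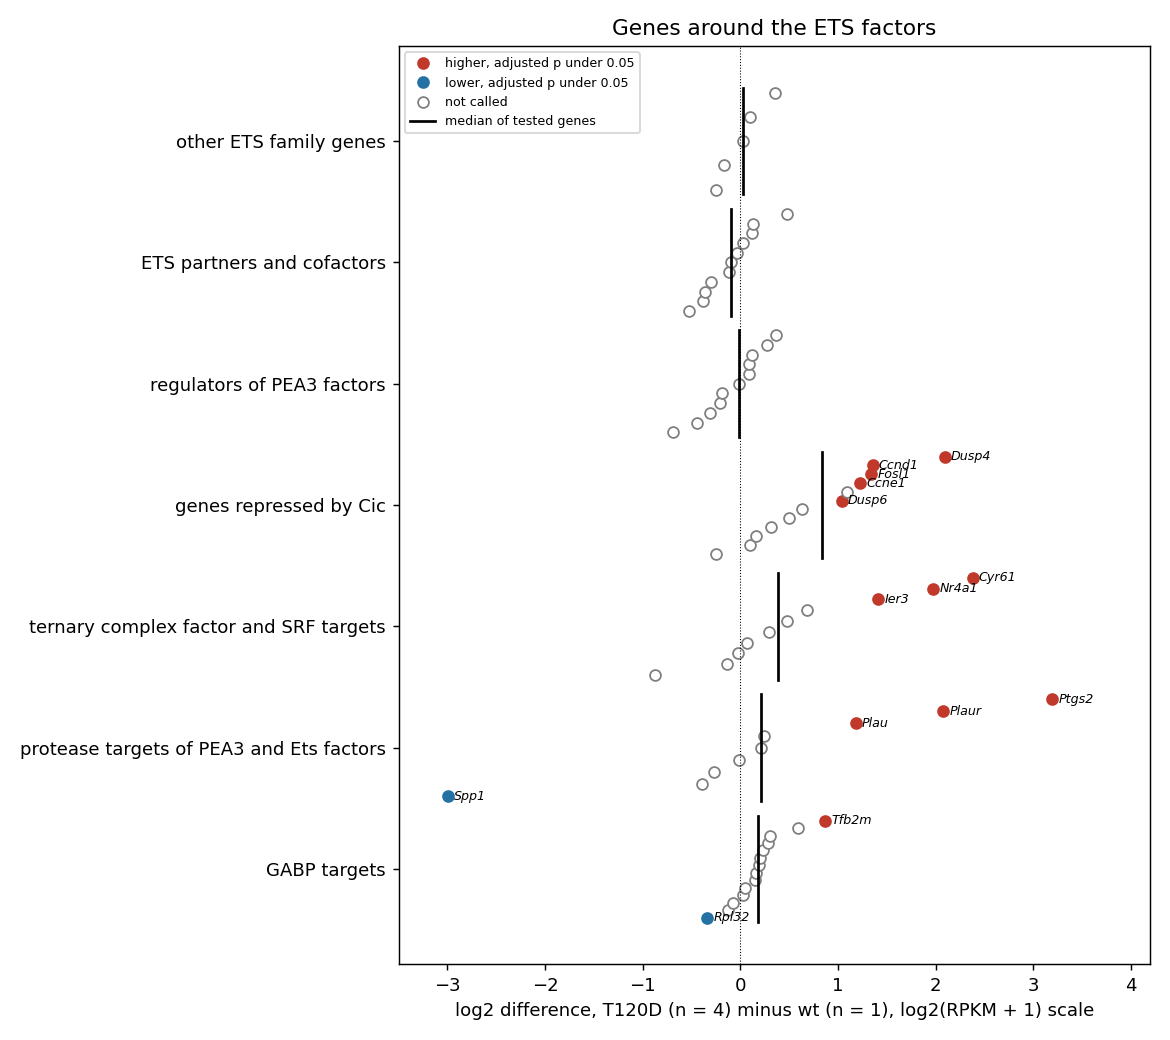
Log2 difference (T120D mean of 4 lines minus the wt line, log2(RPKM + 1) scale) of each tested gene in the 7 lists around the ETS factors; red and blue points were called higher and lower at an adjusted p under 0.05, and the black bar is the list's median. The first 3 lists, of other ETS genes, partners and regulators, hold no called gene, and the Cic list has the highest median, 0.84.

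For each called member, the tested genes with the most similar differences to wt in the 4 T120D lines were looked up by root mean square distance on the log2 scale. Nearest to Etv4 were Crabp1, encoding a retinoic acid binding protein, Tmcc3 and Tnc, encoding tenascin C, at distances of 0.198, 0.221 and 0.238. Etv5 lay nearest to Orai1, a calcium channel gene (0.0677), then to Nop2 and Nxt1. Ets1 was followed most closely by Plekho2 (0.0224), Cox18 and Fam98a. For Ets2 the nearest was Tfap2a, the gene of the transcription factor AP-2 alpha, at 1.99 ± 0.289 RPKM in T120D (SD, n = 4) and 5.63 RPKM in wt (distance 0.0667), before Daam2 and Eml1. With 4 lines that share 1 wt line, such distances mostly reflect the size of the difference.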

How the data were processed

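Messenger RNA of 5 NIH/3T3 lines (4 T120D, 1 wt) was sequenced. Per the labels' protocols, ISOGEN II was used for RNA and a stranded TruSeq mRNA kit for libraries, which were run on a MiSeq. The authors deposited 1 table of RPKM values per line. Partek and mouse build mm9 are named in the submitters' processing notes; which aligner, annotation and strand setting were chosen is not given in the sources used here. The transgenes themselves were not analysed here.

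RPKM was analysed as log2(RPKM + 1) for genes averaging 1 RPKM or more, with limma 3.58.1 in R 4.3.3 (empirical Bayes, intensity trend, two-sided; 3 residual and 5.99 prior degrees of freedom) and Benjamini-Hochberg adjustment over 10052 genes. Depth was estimated from genes with a single annotated transcript (GENCODE vM21 lengths, build GRCm38): at the chosen depth 46.7% to 53.1% of values under 20 reads lay within 0.05 of a whole number of reads, where chance gives 10%, so reads are approximate and no count test was run. Promoters came from RefSeq (GRCm38.p6) and were set against GENCODE exons, and no coordinates were carried between builds.

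The members and lists were chosen with earlier results of these data known. Named were all members and further ETS genes with values, up to 5 called genes of each other list, Srf, Cic, Gabpb1, Mapk3, and the 3 genes nearest to each called member. Atxn1, Rfwd2, Sp1, Gabpb2, Spry2, Dusp5, Egr1, Btg2, Fos, Mcl1, Ier2, Mmp2, Mmp9, Mmp14 and neighbouring genes were named after their values were seen. Alternatives were other pseudocounts, filters and scalings, limma without a trend, and leaving out each T120D line. One gene that the naming rule covers is not reported here.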

Additional observations from a re-analysis of the deposited data

Results flagged for a closer look

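Of 92 tested genes of the member, list and marker sets, 4 had 1 T120D line far from the other 3 on the log2(RPKM + 1) scale, by the gap to the nearest line as a share of the range over the 4 lines. Chance alone gives about 1 such gene in 20. Ets1 was highest in line 3 (26.3 RPKM, against 21.9 to 22.4 RPKM in the other T120D lines; share 0.865); without that line its log2 difference to wt was 0.60 (limma adjusted p = 0.0344). Etv3 was highest in line 6 (4.81 RPKM; share 0.83) and Mapk3 highest in line 18 (21.4 RPKM, close to the 22.1 RPKM of wt; share 0.909). The fibroblast marker S100a4 was highest in line 6 (1150 RPKM; share 0.832).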

How the results depend on the processing

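Over 11 alternatives, the 9 tested members gave 97 values, of which 93 kept their side of the threshold and 4 lost a call, as given beside Etv5 and Ets1. Etv4 was called under all 11, with log2 differences of 2.40 to 3.45, and so was Ets2, with -1.31 to -1.14. Etv5 and Elk1 had no value at a mean of at least 5 RPKM. Without the filter on low values, 1 member was called higher instead of 3, and over all genes 434 instead of 769, which made up 45.8% of the calls against 58.4%. In limma with no trend the counts were 455 higher and 361 lower, instead of 769 and 548. Leaving out 1 T120D line at a time gave 2 to 3 members higher and 1 lower, and 559 to 799 genes higher and 400 to 596 lower. Scaling by the median or by quantiles moved no member's call. No paired analysis was possible because the groups share no replicate numbers and wt has 1 line. Depth limits the low genes: at 5.04 to 5.44 reads per RPKM of a 2000-base transcript, Etv1 and Etv4 in wt rest on few reads.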

Other observations

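The nearest tested protein-coding genes on either side of each member, by gene order in the RefSeq annotation of GRCm38.p6, were looked at after the member values were known. Of these 20 neighbours 1 was called, a share below the 13.1% called over all tested genes. It was Dusp3, a phosphatase gene separated from Etv4 by 2 genes that were not tested. Dusp3 was at 7.57 ± 1.36 RPKM in T120D (SD, n = 4) and 3.32 RPKM in wt (log2 difference 0.98, limma adjusted p = 0.0216). On the other side of Etv4, Dhx8 was at 4.81 ± 0.457 RPKM in T120D and 4.93 RPKM in wt (limma adjusted p = 0.935). Next to Ets2, Psmg1 was at 4.13 ± 1.20 RPKM in T120D and 3.72 RPKM in wt (limma adjusted p = 0.871).

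Among the genes listed as repressed by Cic, the promoter windows of Dusp5, Dusp6, Spred3 and Spry2 each held 1 of the 8 octamers. Those of Ccne1, Spred1, Spred2 and Spry1 held 0, as did those of Etv1, a PEA3 gene outside the list. Of all windows, 5.86% held at least 1. The called genes Dusp4, Fosl1 and Ccnd1, and Ccnd2 and Spry4, had no window and are not in this count. Of the 4 with a match, Dusp6 was called and Dusp5, Spred3 and Spry2 were not. Dusp5 was at 4.79, 5.43, 2.60 and 5.92 RPKM in T120D lines 3, 6, 15 and 18 and at 1.59 RPKM in wt, with a log2 difference of 1.09 (limma adjusted p = 0.0639), and it was called when line 15 was left out (limma adjusted p = 0.00975) and under quantile normalization (limma adjusted p = 0.047). Spry2 was called when line 6 was left out (limma adjusted p = 0.0343).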
